A study of Mus musculus with 2 samples.

Results

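The 10 genes described here form the core of the transforming growth factor beta (TGF-β) pathway. They are the ligand gene *Tgfb1*, the receptor genes *Tgfbr1*, *Tgfbr2* and *Tgfbr3*, the Smad genes *Smad2*, *Smad3*, *Smad4*, *Smad6* and *Smad7*, and the corepressor gene *Skil*. They were taken by symbol from 24421 gene symbols counted by RNA sequencing, and all 10 were among the 12588 genes tested.

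RNA was measured in mouse hematopoietic stem cells (HSCs) of the C57BL/6 strain, the marrow cells that renew themselves and supply all blood lineages. The WT library came from cells of genotype Ezh2 +/+ CreERT+/- and the library labelled Ezh2 KO from cells of genotype Ezh2 Δ/Δ CreERT+/-. Both groups carried the tamoxifen-dependent CreERT recombinase, were grown from donor marrow in lethally irradiated recipients, and received tamoxifen (100 μl of 10 mg/ml daily for 5 days). Cells sorted 1 month later were CD150+ but CD48-, CD34- and Flt3-, within the Lin- fraction that carries Sca-1 and c-kit. *Ezh2* encodes the main enzyme that places the repressive histone mark H3K27me3. Neither the promoter of the CreERT transgene, nor the number of donors or recipients behind each library, nor the age of the mice was given in the sources used here.

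TGF-β is secreted in a latent form and is activated outside the cell. Active ligand binds the type II receptor, which recruits and phosphorylates the type I receptor, and the type I receptor in turn phosphorylates SMAD2 and SMAD3. These join SMAD4 and enter the nucleus to regulate genes. SMAD6 and SMAD7 restrain the pathway at the receptors, and SKIL (SnoN) restrains it on chromatin. In the bone marrow, TGF-β is known for holding HSCs in a resting state.

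There was 1 library per group, so no difference has a replicate check. Gene totals were 5763118 counts for WT and 4157280 for the library labelled Ezh2 KO. All ratios are of the library labelled Ezh2 KO over WT, as log2 of the normalised count (the count divided by a size factor for the library) plus 1. The intervals, the log2 ratios of sums and the folds printed for single genes leave out the added 1. Fold thresholds are applied to the log2 ratio. Brackets hold 95% intervals that cover counting error only, since there is 1 library per group. Reads copied by PCR and lacking molecular identifiers are not independent, so the intervals may be too narrow even for that. A gene was called higher or lower where an exact test of its reads gave an adjusted value below 0.01 and the difference was at least 2-fold. That test compares these libraries and not the conditions.

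The 2 libraries differed in other ways than their labels. *Ezh2* itself gave 166 counts from WT and 129 from the library labelled Ezh2 KO, which normalise to 142 and 150 (log2 ratio 0.08, -0.27 to 0.42). The library labelled as its knockout thus had no lower *Ezh2* level. The deleted exons are not given in the sources used here, and a gene count also takes reads outside them. *Xist*, the RNA of the inactive X chromosome, gave 801 counts from WT and 4 from the library labelled Ezh2 KO, against 0 and 275 for the Y-linked *Ddx3y*. The genotype label and these sex-linked differences cannot be told apart. Summed levels of 13 HSC markers were close, at 24472 and 24948 normalised counts, with 0 of 13 called. Of the genes used to sort cells out, *Cd34* RNA was present in both, with 957 and 829 counts. These normalise to 821 and 966 (log2 ratio 0.23, 0.10 to 0.37).

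Promoter sequence from RefSeq (GRCm38.p6) was found for 5 of the 10 genes. The windows of *Tgfb1*, *Tgfbr2*, *Smad3* and *Smad6* are shown because the intervals of their log2 ratios, given below, lay off 0, in both directions. The interval of *Skil* did so too, and it had no window. Each is the 250 bases before the annotated start, in the direction of the gene, with every CpG in capitals. They lie at chr7:25686752-25687001 on the plus strand, chr9:116175364-116175613 on the minus strand, chr9:63757995-63758244 on the minus strand and chr9:64022060-64022309 on the minus strand.
Tgfb1: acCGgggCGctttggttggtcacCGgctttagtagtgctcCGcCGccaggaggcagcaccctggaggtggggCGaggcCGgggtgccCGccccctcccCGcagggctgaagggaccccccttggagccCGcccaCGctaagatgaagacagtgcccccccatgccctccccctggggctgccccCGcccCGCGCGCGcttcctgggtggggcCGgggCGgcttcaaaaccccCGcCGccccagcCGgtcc
Tgfbr2: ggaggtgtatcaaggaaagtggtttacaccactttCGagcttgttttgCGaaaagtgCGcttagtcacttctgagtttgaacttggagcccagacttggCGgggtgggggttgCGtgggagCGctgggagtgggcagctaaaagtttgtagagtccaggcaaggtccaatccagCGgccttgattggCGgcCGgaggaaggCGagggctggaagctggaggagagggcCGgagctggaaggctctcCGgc
Smad3: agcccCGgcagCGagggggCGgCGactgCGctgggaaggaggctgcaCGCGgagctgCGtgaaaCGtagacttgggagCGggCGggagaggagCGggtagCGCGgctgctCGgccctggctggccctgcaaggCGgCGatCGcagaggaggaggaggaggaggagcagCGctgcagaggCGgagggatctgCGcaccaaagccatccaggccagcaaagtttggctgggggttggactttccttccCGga
Smad6: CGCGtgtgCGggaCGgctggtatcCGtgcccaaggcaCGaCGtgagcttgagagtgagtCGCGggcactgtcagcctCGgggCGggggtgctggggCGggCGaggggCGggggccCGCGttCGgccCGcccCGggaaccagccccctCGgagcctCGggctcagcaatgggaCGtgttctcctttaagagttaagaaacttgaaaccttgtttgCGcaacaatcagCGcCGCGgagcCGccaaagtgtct
The *Tgfb1* window was 75.2% G and C with 21 CpGs, that of *Tgfbr2* 58.4% with 12, that of *Smad3* 69.2% with 22 and that of *Smad6* 66.8% with 27. Across 32851 windows of the same length the medians were 52.4% and 6. All 4 windows held more CpGs than the median window, those of *Tgfb1* and *Smad3* with intervals below 0 and those of *Tgfbr2* and *Smad6* with intervals above 0. The interval of *Tgfbr1* lay on both sides of 0, and its windows held 29 CpGs before the first annotated start and 3 before the second.

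Letters that Smad complexes are known to bind were searched on both strands of these windows. The 5-letter motif CAGAC was present in the *Tgfbr2* window and absent from those of *Tgfb1*, *Smad3* and *Smad6*. It occurs in 42.2% of all windows. GGCGCC, found in 9.59% of all windows, was present before the first of 2 annotated starts of *Tgfbr1*, and CAGAC before the second. The AP-1 motif TGACTCA, in 4.46% of all windows, was in none of the 6 member windows. These matches describe the letters in the windows and say nothing of binding.

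*Skil* was the only one of the 10 genes called. It was lower in the library labelled Ezh2 KO, and 0 of 10 were called higher. Across all genes tested, 2.3% were called lower and 2.8% higher. Of the 8083 genes whose mean reached 100 normalised counts, 0.569% were called lower and 0.482% higher. All members but *Skil* belong to that abundant set, and 0 of these 9 were called. At a threshold of 1.5-fold the count of members stayed at 1 lower and 0 higher, against 5.05% lower and 4.97% higher of all genes tested, and 4.05% and 3.13% of the abundant set. The median log2 ratio of the 10 was -0.06, beside -0.003 for all genes tested, and 4 of the 10 lay above 0. Their summed level was 3862 normalised counts for WT and 3707 for the library labelled Ezh2 KO (log2 ratio of the sums -0.06, -0.13 to 0.01). In bulk RNA, fewer cells of a type and less RNA per cell cannot be told apart.

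**Figure D1:**
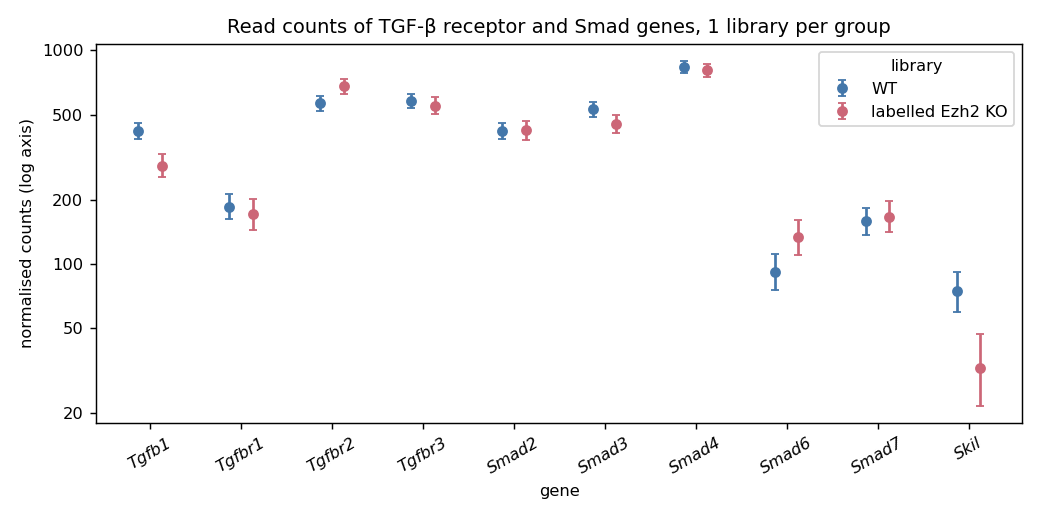
Normalised counts of the 10 genes on a log axis in the WT library and the library labelled Ezh2 KO, with 1 point per library and bars for the 95% counting interval. The intervals of the 2 libraries are apart for *Tgfb1*, *Tgfbr2* and *Skil*, and the points of *Smad2* nearly coincide (420 and 423).

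**Figure D2:**
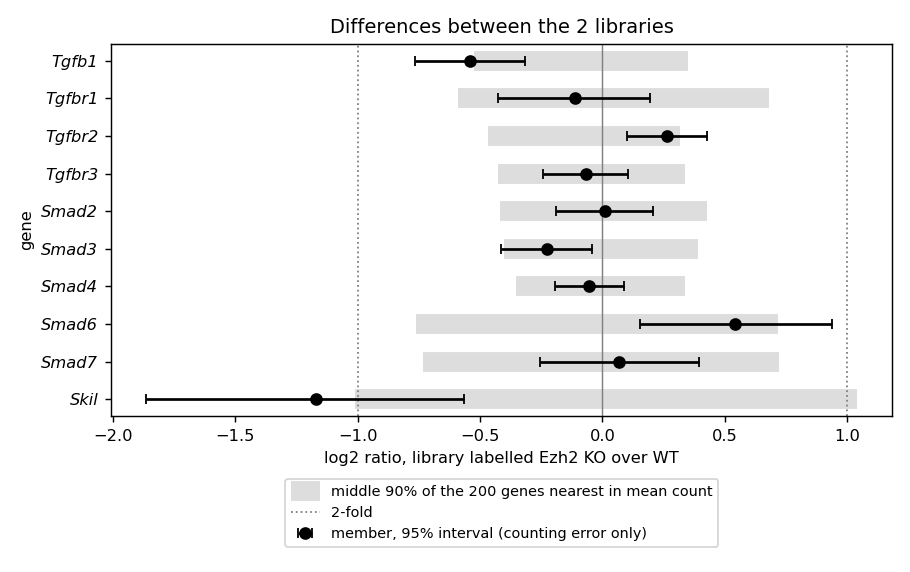
Log2 ratio (library labelled Ezh2 KO over WT) of each gene with its 95% counting interval, beside the middle 90% of the 200 tested genes nearest to it in mean level. *Skil* (-1.17) and *Tgfb1* (-0.54) lie below the middle 90% of their neighbours, and the other 8 genes lie within it.

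*Tgfb1* encodes the TGF-β1 ligand and lies on chromosome 7 (25687002 to 25705077, GRCm38). WT gave 490 counts and the library labelled Ezh2 KO 248, which normalise to 420 and 289. The level was lower in the library labelled Ezh2 KO, and the counting intervals of the 2 libraries did not overlap. The log2 ratio was -0.54 (-0.77 to -0.32), a 1.46-fold lower level, which did not reach the fold threshold. Of the 200 tested genes nearest to it in level, 5% had a lower ratio.

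Megakaryocytes and platelets are known to carry much TGF-β1, so the markers of these cells are given beside it. The 12 markers summed to 3589 normalised counts for WT and 2007 for the library labelled Ezh2 KO, where 2 of 11 tested were called lower and 0 higher, beside 2.3% lower and 2.8% higher of all genes tested. The ratios of 4 of the 11 lay above 0. *Vwf*, the von Willebrand factor gene and the one with the most counts in WT, had 1677 and 411 counts, or 1439 and 479 normalised counts, most of the gap in the sum. Both *Tgfb1* and this summed level were thus lower in the same library. Bulk RNA does not show which of the sorted cells held these marker RNAs. The part of megakaryocytes and platelets in the *Tgfb1* difference was not tested.

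The receptor genes were present in both libraries and none was called. *Tgfbr2*, the type II receptor that binds the ligand first, lies on chromosome 9 (116084293 to 116175360). WT gave 659 counts and the library labelled Ezh2 KO 583, which normalise to 566 and 679. The level was 1.20-fold higher in the library labelled Ezh2 KO, at a log2 ratio of 0.26 (0.10 to 0.43). The interval lay above 0, and 90% of the neighbours in level had a lower ratio.

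*Tgfbr1*, the signalling type I receptor (chromosome 4, 47353222 to 47414931), had 216 and 147 counts, or 185 and 171 normalised counts. Its log2 ratio of -0.11 had an interval on both sides of 0 (-0.43 to 0.20). *Tgfbr3*, the coreceptor betaglycan that presents ligand to the type II receptor (chromosome 5, 107106570 to 107289629), had 674 and 473 counts, or 578 and 551 normalised counts. Its log2 ratio was -0.07 (-0.24 to 0.10), again on both sides of 0. A neighbouring gene model on the same strand, *Gm43422*, shares 4.54% of the *Tgfbr3* exon bases, and reads there may have been counted for either gene or for neither. The 3 receptor genes together gave 1329 and 1402 normalised counts (log2 ratio of the sums 0.08, -0.03 to 0.19).

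None of the genes for the Smads that carry the signal was called. *Smad2* had nearly the same normalised level in both libraries, 420 and 423, from 490 and 363 counts (log2 ratio 0.01, -0.19 to 0.21). *Smad3*, its partner as a substrate of the type I receptor, had 618 and 389 counts, or 530 and 453 normalised counts. *Smad3* was somewhat lower in the library labelled Ezh2 KO, at a log2 ratio of -0.23 (-0.41 to -0.04), with an interval below 0. *Smad4*, the common partner of receptor-activated Smads, had 975 and 692 counts, or 837 and 806 normalised counts (log2 ratio -0.05, -0.20 to 0.09). These 3 genes summed to 1788 and 1683 normalised counts (log2 ratio of the sums -0.09, -0.18 to 0.01). *Smad3* lies on chromosome 9 (63646767 to 63757994), *Smad2* on chromosome 18 (76241580 to 76310963) and *Smad4* on chromosome 18 (73639009 to 73703780).

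Of the inhibitory Smads, *Smad6* stood higher in the library labelled Ezh2 KO and *Smad7* did not differ beyond its counting error. *Smad6*, which mainly restrains signalling by bone morphogenetic proteins (BMPs), gave 107 counts from WT and 115 from the library labelled Ezh2 KO, which normalise to 91.8 and 134. The log2 ratio was 0.54 (0.15 to 0.94), a 1.46-fold higher level that was not called. It lay inside the middle 90% of its 200 neighbours in level (-0.76 to 0.72). *Smad7*, which blocks the type I receptor and is itself induced by TGF-β, had 185 and 143 counts, or 159 and 167 normalised counts (log2 ratio 0.07, -0.26 to 0.39). Together the 2 genes gave 251 and 301 normalised counts (log2 ratio of the sums 0.26, 0.02 to 0.51). *Smad6* lies near *Smad3* on chromosome 9 (63953076 to 64022059), and *Smad7* lies on chromosome 18 (75367529 to 75395935).

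*Skil* encodes SnoN, a corepressor that binds Smad complexes, and lies on chromosome 3 (31095058 to 31122577). WT gave 87 counts and the library labelled Ezh2 KO 28, which normalise to 74.7 and 32.6. *Skil* was thus 2.29-fold lower in the library labelled Ezh2 KO, at a log2 ratio of -1.17 (-1.86 to -0.57). It also had the fewest reads of the 10 genes. The middle 90% of its 200 neighbours in level spanned -1.01 to 1.04, and 3% of them had a lower ratio. The call was lost when the WT library was thinned to the depth of the other, where the log2 ratio was -0.96 and so just short of 2-fold, and when libraries were assumed to vary by a CV (coefficient of variation) of 0.2.

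**Figure D3:**
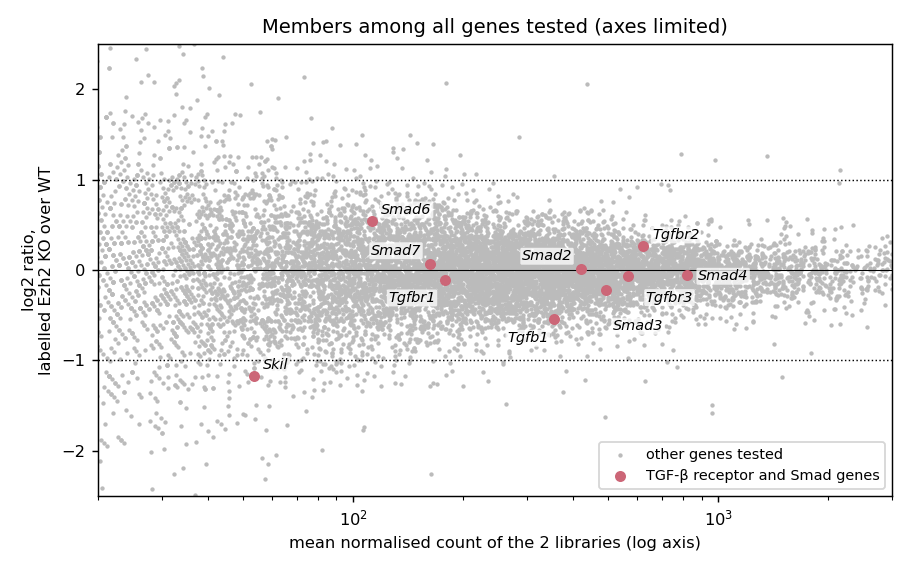
Log2 ratio (library labelled Ezh2 KO over WT) against the mean normalised count on a log axis for the genes tested, with the 10 genes named. Both axes are limited to the range around the 10 genes, and *Skil* lies at the low-count edge of the 10 genes, where the cloud of all genes is wider.

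Levels were compared between genes per kilobase of annotated exon, which is the union over all transcripts of a gene. *Smad4* had the highest level in both libraries, at 225 normalised counts per kilobase for WT and 217 for the library labelled Ezh2 KO. In WT it was followed by *Smad3* (95.7), *Tgfbr3* (88.4) and *Tgfb1* (83.4), and neighbours within these 3 did not differ beyond their counting intervals. *Tgfbr2* (69.1) and *Smad2* (47.9) came next, each apart from its neighbours. *Smad7* (35.1), *Smad6* (28.6) and *Tgfbr1* (28.4) followed, with overlapping neighbours, and *Skil* was last at 7.70.

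In the library labelled Ezh2 KO the levels after *Smad4* were *Tgfbr3* at 84.2, *Tgfbr2* at 83.0 and *Smad3* at 81.8 normalised counts per kilobase, with overlapping neighbours. *Tgfb1* at 57.3 stood below these, and its interval overlapped that of *Smad2* (48.2). *Smad6* (41.8) overlapped both *Smad2* and *Smad7* (36.9). *Tgfbr1* (26.2) and *Skil* (3.37) were lowest and each apart from the gene above it. *Tgfb1* thus stood above *Tgfbr2* in WT and below it in the library labelled Ezh2 KO.

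**Figure D4:**
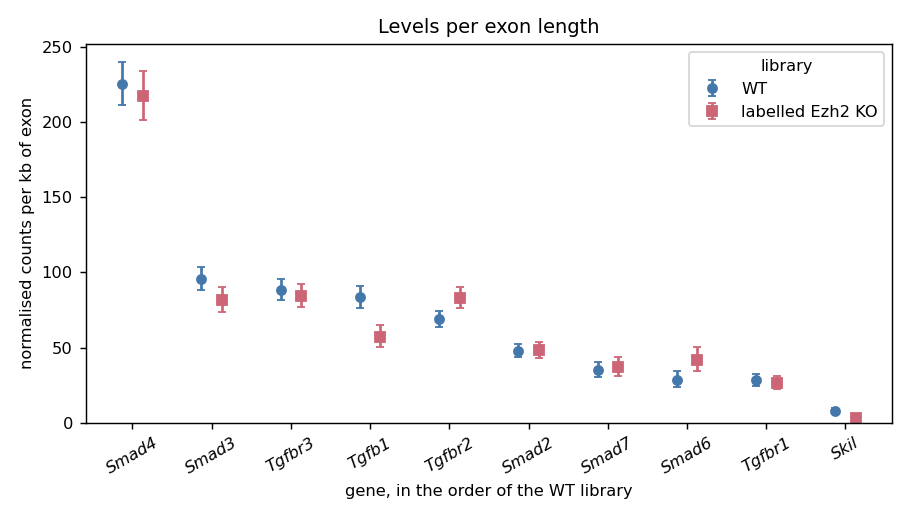
Normalised counts per kilobase of annotated exon for the 10 genes in each library, with bars for the 95% counting interval, ordered by the WT level. *Smad4* is highest (225 and 217) and *Skil* lowest (7.70 and 3.37) in both libraries.

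Ratios between genes within a library do not depend on the scaling of the libraries. The per-kilobase level of *Tgfbr2* was 2.43 times that of *Tgfbr1* in WT (2.08 to 2.85) and 3.17 times in the library labelled Ezh2 KO (2.64 to 3.82). The intervals of the receptor ratio overlapped. *Tgfbr3* was 1.28 times *Tgfbr2* in WT (1.15 to 1.43) and 1.01 times in the other library (0.897 to 1.15). *Smad4* was 4.71 times *Smad2* in WT (4.22 to 5.26) and 4.51 times in the other library (3.97 to 5.13). *Smad4* was 2.36 times *Smad3* in WT (2.13 to 2.61) and 2.66 times in the other library (2.34 to 3.01). For the inhibitory Smads, the ratio of *Smad7* to *Smad6* was 1.23 in WT (0.961 to 1.57) and 0.882 in the other library (0.685 to 1.14). Neither interval of this last ratio excluded equal levels.

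Marker genes of blood cells other than HSCs differed between the libraries. Across all genes tested, 2.8% were called higher and 2.3% lower. The 7 eosinophil markers counted summed to 6.01 normalised counts for WT and 3749 for the library labelled Ezh2 KO, with 5 of 6 tested called higher. The 5 called had 0 counts in WT, among them the granule protein genes *Prg2* (2030 counts in the other library) and *Epx* (1000). Of the receptor genes in the list, *Il5ra* (2 and 8 counts) was not called and *Ccr3* (5 and 4) was not tested. Neutrophil markers summed to 10382 and 19077 normalised counts, with 6 of 13 called higher and 2 at log2 ratios below 0. Of these 2, *Elane* (860 and 374 counts) was lower at 1.5-fold. Erythroid markers summed to 9138 and 11349, with 5 of 11 called higher and 2 at log2 ratios below 0. *Car2* held most of the erythroid sum (8474 and 10010 normalised counts) and was not called. B lymphoid markers summed to 239 and 491, with 5 of 6 tested called higher, while 8 of the 12 were at 0 counts in WT and 3 were in the library labelled Ezh2 KO. Monocyte markers summed to 2661 and 3152 (2 of 9 higher, 1 lower), of which *Lyz2* alone gave 2444 and 2927. The median log2 ratio of these 9 was -0.19, with 5 below 0. T and NK markers summed to 280 and 299 (3 of 6 higher, 1 lower), and basophil and mast cell markers to 38.6 and 76.9 (1 of 3 higher). Of the CD3 genes that define T cells, *Cd3d* and *Cd3e* were at 0 counts in both libraries and *Cd3g* at 0 and 9, and it was called higher with *Il2rb* (0 and 34 counts) and *Cd247* (28 and 55), while *Klrb1c* (116 and 14) was called lower. Stromal and endothelial markers summed to 470 and 606 (2 of 7 higher, *Pdgfra* and *Cdh5* at 0 in both). The 4 genes for progenitors that the sort leaves out summed to 916 and 1143, with 0 of 3 called and all 3 above 0. Of these *Flt3*, against which the cells were sorted, had 98 and 140 counts, a log2 ratio of 0.95 (0.57 to 1.34), and was higher at 1.5-fold. The part of these cells in the differences of the 10 genes was not tested.

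The rest of the pathway was read from 8 lists of 137 genes, of which 103 were tested. In all, 2 of the 103 (1.94%) were called higher and 3 (2.91%) lower, close to the shares of all genes tested (2.8% and 2.3%). At 1.5-fold, 6 (5.83%) were higher and 10 (9.71%) lower, against 4.97% and 5.05% of all genes. Of the 103, 52 lay above 0 and 51 below, where the scaling put 49.6% of all genes tested above 0 and 50.4% below. None of the 10 core genes is in these lists.

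Of 11 ligand and latent-complex genes tested, 1 was called higher and 1 lower, beside 2.8% and 2.3% of all genes tested (median log2 ratio -0.08). *Thbs1*, thrombospondin-1, an activator of latent TGF-β (chromosome 2, 118111876 to 118127133), gave 4 counts from WT and 52 from the library labelled Ezh2 KO, for a log2 ratio of 3.80 (2.70 to 6.07). Without the 1 added to each count, it was 17.7-fold higher, from few reads in WT. *Itgb6*, a subunit of an epithelial integrin that activates latent TGF-β, had 17 and 0 counts. With a floor of 3 counts in place of 0, its level was 4.17-fold lower in the library labelled Ezh2 KO. The counting interval began at 3.04-fold lower. Of 9 activin, BMP and GDF genes tested, *Fstl3*, an antagonist of activin, rose from 7 to 24 counts, and *Inhba*, the activin A subunit, fell from 53 to 12. Their log2 ratios were 2.05 (0.96 to 3.68) and -1.63 (-2.74 to -0.78). The called genes of these lists had at most 53 counts in either library, fewer than any of the 10 core genes had in WT.

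In the 5 lists of other receptors, Smads, regulators and the Smad-independent branch, 0 of 61 genes were called, beside 2.8% higher and 2.3% lower of all genes tested. At 1.5-fold, *Ski* was higher, and *Acvr2a* (an activin receptor), *Usp9x* (a deubiquitinase of SMAD4) and *Xpo4* (a nuclear exporter of SMAD3) were lower, with log2 ratios of -0.85, -0.68 and -0.77. For 9 other receptors and coreceptors the median log2 ratio was -0.07, and the gene with the most counts, the coreceptor gene *Eng* (endoglin), had 1401 and 957 counts (log2 ratio -0.11, -0.23 to 0.01). For 13 other Smads and cofactors the median was 0.01, with *Smad1*, the BMP-activated Smad, at 1000 and 739 counts (0.01, -0.13 to 0.14). For 16 negative regulators the median was 0.01, with *Fkbp1a*, whose product FKBP12 holds the type I receptor inactive, at 2431 and 1514 counts (-0.24, -0.34 to -0.15). For 11 positive regulators the median was -0.02, with *Usp4*, a deubiquitinase of the type I receptor, at 987 and 625 counts (-0.22, -0.36 to -0.07). For 12 genes of the Smad-independent branch the median was -0.02, with the phosphatase subunit gene *Ppp2r1a* at 2588 and 1799 counts (-0.08, -0.17 to 0.00).

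*Ski*, the paralog of *Skil* and a corepressor of the same Smads, was named after its values were seen. WT gave 446 counts and the library labelled Ezh2 KO 554, which normalise to 383 and 646. *Ski* was higher in the library labelled Ezh2 KO, at a log2 ratio of 0.75 (0.57 to 0.94), past the 1.5-fold threshold and short of 2-fold. The 2 paralogs thus lay on opposite sides of 0.

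Of 24 known TGF-β and BMP target genes tested, 0 were called higher and 1 (4.17%) lower, beside 2.8% and 2.3% of all genes tested. The median log2 ratio of the 24 was 0.11. The gene called was *Fn1*, fibronectin, a matrix protein (chromosome 1, 71585520 to 71653200). The library labelled Ezh2 KO gave 0 counts and WT gave 55. With the floor of 3 counts in place of 0, the level was 13.5-fold lower, and the counting interval began at 10.6-fold lower. At 1.5-fold, *Id2*, *Klf11* and *Nedd9* were higher and *Fn1*, *Junb*, *Bhlhe40* and *Cdc25a* lower, which is 12.5% and 16.7% of the 24 against 4.97% and 5.05% of all genes tested. *Junb*, an AP-1 transcription factor gene and the one of the list with the most counts in WT, had 9736 and 3818 counts, a log2 ratio of -0.91 (-0.96 to -0.86). *Smad7* and *Skil*, which are themselves targets of TGF-β, had log2 ratios of 0.07 and -1.17.

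**Figure D5:**
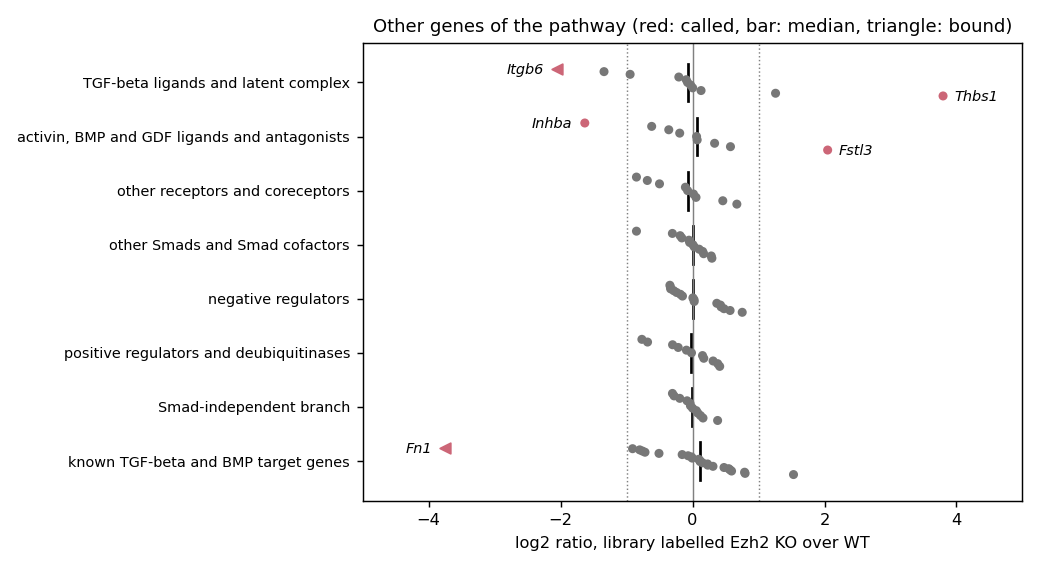
Log2 ratio (library labelled Ezh2 KO over WT) of each tested gene in the 8 pathway lists, with 1 row per list, genes called at 2-fold marked and list medians shown as vertical ticks. Triangles mark *Itgb6* and *Fn1* at their bounds, since both had 0 counts in the library labelled Ezh2 KO, and most points lie near 0.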

How the data were processed

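Gene-level RNA-seq counts of 1 WT library and 1 library labelled Ezh2 KO were used, with groups from the labels' genotypes and titles. The authors deposited raw counts of reads for each symbol, without normalisation. The submitters' processing notes name TopHat2 2.0.13, Bowtie2 2.1.0 and mm10. The study's methods name StringTie for counts, yet the last lines are named in the manner of htseq-count, and neither the program nor its strand setting was settled. The 5 entries for reads without a gene were left out. Reads in no annotated gene were 44.9% and 44.1% of all entries, and reads with several alignments 10.7% and 12.3%. The depth set floors (3 counts) of 0.521 and 0.722 CPM.

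Counts were divided by DESeq2 1.42.0 size factors (1.17 and 0.858, R 4.3.3). Genes with a mean of at least 1 CPM were tested. The edgeR 4.0.16 quasi-likelihood test and the DESeq2 test need replicates and could not be run with 1 library per group. A two-sided exact binomial test, conditional on the sum of both raw counts, with Benjamini-Hochberg adjustment over all 12588 genes, took their place (Python 3.11.15, scipy 1.17.1, statsmodels 0.14.6, numpy 2.4.6, pandas 2.3.3), and its p-values are not printed because they carry no replicate error. Intervals are exact 95% (Clopper-Pearson for ratios, Poisson for levels). The procedure was tried on simulated counts that held counting error only. Such counts cannot show how the calls behave where libraries also vary in other ways. Positions and exon lengths come from GENCODE M21 (GRCm38, the assembly of mm10), with 23376 of 24421 symbols matched, and figures were drawn with matplotlib 3.10.9.

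The 10 genes and all lists were chosen with earlier results of these data known. All 10 are reported. Of each pathway list the text names genes called (up to 3 by size of the ratio) and otherwise the most abundant in WT, and of marker lists the most abundant where one is named. *Ezh2* checks the labels. *Ski*, *Junb*, the genes past 1.5-fold, *Xist*, *Ddx3y* and the single markers other than *Vwf* and *Prg2* were named after their values were seen.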

Additional observations from a re-analysis of the deposited data

How the results depend on the processing

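The log2 ratios of the 10 genes stayed within their counting intervals under TMM scaling, total-count scaling, pseudocounts of 0.5 and 5, a correction for an exon length trend, and thinning of the WT library to the other depth (1 seeded draw), 60 of 60 values. The sign was kept by 9 of 10, the exception being *Tgfbr1* (-0.11, and 0.05 after thinning). *Skil* ranged from -1.18 to -0.96, *Tgfb1* from -0.54 to -0.48, *Smad6* from 0.52 to 0.74 and *Tgfbr2* from 0.23 to 0.29. *Skil* was called also under both scalings, at an adjusted value below 0.05, without a filter and with a minimum of 10 CPM. Thinning left 0 members lower, as *Skil* at -0.96 was just short of 2-fold. With no fold threshold, 1 member was higher (*Tgfbr2*) and 2 lower (*Skil*, *Tgfb1*), the pathway lists had 13 higher and 17 lower, and all genes 1218 and 1425. At 1.5-fold these were 6 and 10 for the pathway lists and 626 and 636 for all genes. With a minimum of 10 CPM, which tests fewer genes, they were 0 and 0 for the pathway lists and 96 and 115 for all genes. An assumed CV of 0.2 left 0 members lower, 1 pathway gene higher (*Thbs1*) and 1 lower (*Fn1*), and 41 and 22 of all genes. A CV of 0.4 left 0 members lower, 0 and 0 pathway genes, and 8 and 2 of all genes. No paired analysis was possible because there is 1 library per group, and no replicate could be left out. The depth limits *Skil* most, with 28 counts in the library labelled Ezh2 KO.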
